A study of Arabidopsis thaliana with 9 samples.

Results

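UDP-glycosyltransferases are enzymes that move a sugar from a UDP-sugar onto another molecule, and the genes described here are the Arabidopsis thaliana genes that the deposited count table annotates as such. Members were the genes whose function text, up to its first semicolon, holds the words UDP-glycosyltransferase or UDP-glucosyl transferase. That text matched 128 genes, of which 5 were left out by identifier. The rule names 6 such genes, AT1G24100, AT2G31790, AT5G54060, AT4G14090, AT5G17050 and AT1G30530, and the text of AT5G54060 does not match. This left 123 members of the 33323 genes in the table. Of these, 54 carry a UGT name, 6 another name and 63 only an identifier. The words also take in a few enzymes of other glycosyltransferase families, among them DGD1 of galactolipid synthesis and GBSS1 of starch synthesis.

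In plants, the large family of small-molecule glycosyltransferases attaches glucose, rhamnose or arabinose to hormones, phenylpropanoids, flavonoids and foreign compounds. The added sugar usually makes the acceptor more soluble, ends its activity or prepares it for storage in the vacuole. Family members are numbered by sequence similarity, so that genes sharing the first number, such as UGT71, are more alike than genes of different numbers, and many lie side by side on a chromosome.

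RNA-seq was done on whole rosettes, without roots, of plants aged 23 days, in wild-type Col-0 and in the mutant lines jazQ and jazD, with 3 libraries per genotype. Each library was a pool of about 20 plants, and the genotypes were grown in shared trays under 16 h of light. The labels name the lines but not their alleles. As background, the genes disrupted in jazQ are JAZ10, JAZ9, JAZ4, JAZ3 and JAZ1, and those disrupted in jazD are the same set with JAZ13, JAZ7, JAZ6, JAZ5 and JAZ2. JAZ proteins repress transcription factors of the jasmonate response and are degraded when the hormone is perceived. The accession of jazD is labelled Col-0 with an asterisk that the labels do not explain.

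Library totals ran from 15370271 to 20730459 counts. JAZ1 stood at 25.4, 26.5 and 23.8 CPM (counts scaled to library size) in Col-0, at 2.66, 2.54 and 2.79 in jazQ and at 2.05, 2.69 and 2.26 in jazD. JAZ2 stood at 21.1, 21.7 and 26.9 CPM in Col-0, at 29.7, 47.3 and 31.4 in jazQ and at 3.46, 2.63 and 3.22 in jazD. Both genes therefore followed the labels. Of 5 rosette leaf marker genes, 1 passed the test in jazD against Col-0, RCA, which encodes Rubisco activase, with a log2 fold change of -0.50. The summed leaf markers spanned 43678.7 to 45159.1 CPM in Col-0, 42337.8 to 49662.8 in jazQ and 40300.9 to 41213.4 in jazD, so that every jazD library lay below every library of the other genotypes, and their part in the results was not tested. The 6 root markers summed to at most 0.378 CPM in any library, with 2 of them at 0 throughout, and the 4 flower markers to at most 0.792. In whole rosettes, fewer cells of a type and less RNA per cell cannot be told apart.

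Of the 123 members, 115 had a count in some library and 91 passed the filter on low counts. The other 32 were not tested. Among these, 8 were at 0 in every library, 12 had between 1 and 9 counts over all libraries, and the highest genotype mean was 0.543 CPM. Each comparison was a contrast of 1 edgeR quasi-likelihood fit over 19405 genes, and a gene is said to have risen or fallen when its Benjamini-Hochberg adjusted p was under 0.05. Values after ± are standard errors of log2 fold changes unless SD is written.

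Loss of the larger set of JAZ genes went with higher transcript levels of many family members. In jazD against Col-0, 30 of the 91 tested members rose and 7 fell (33.0% and 7.69%), where 13.3% of all genes tested rose and 12.5% fell. A rise of at least 2-fold was seen in 19 members and a fall of at least 2-fold in 3, against 4.07% and 1.98% of all genes tested. The median log2 fold change was 0.18 over tested members and 0.00 over all genes tested. The libraries of jazD and Col-0 did not overlap for 36 of the 37 members that passed, and the exception was UGT72B1. The same count over all genes that passed was not made, so it is not read as a trait of the family. Among tested members, 6 reached the filter only with the help of the jazD libraries, and 4 of these rose. These 4, UGT73B4, UGT71C2, AT2G36770 and UGT71B5, are also counted among the rises of at least 2-fold. Of the other 85 tested members, 26 rose and 7 fell.

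**Figure D1:**
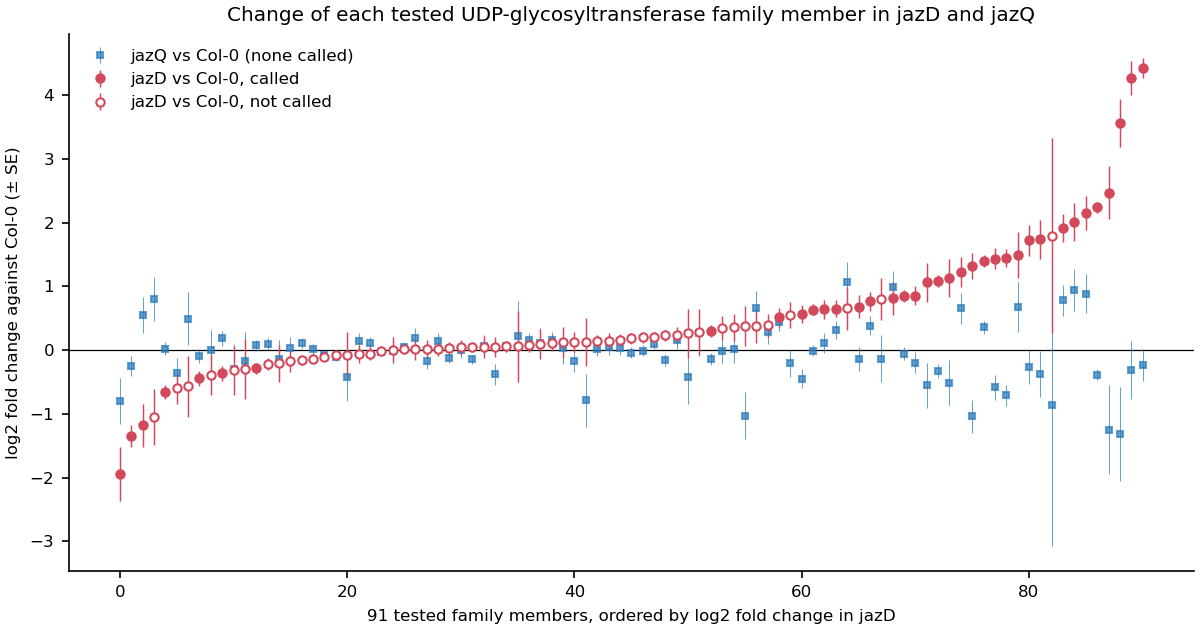
Log2 fold change against Col-0 (vertical axis, bars are standard errors) for the 91 tested members, ordered along the horizontal axis by the change in jazD. Circles are jazD, filled where the adjusted p was under 0.05, and squares are jazQ, of which none passed. The jazD values run from -1.95 to 4.43, while jazQ values lie between -1.32 and 1.07. The open circle with the longest bar is UGT76E12.

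The largest rise of any tested member was in a gene of the salicylate list, whose enzymes conjugate the defence hormone salicylate or its derivatives. UGT71C3, a glucosyltransferase of methyl salicylate, stood at 1.27, 1.34 and 1.32 CPM in Col-0, at 0.865, 0.767 and 1.59 in jazQ and at 27.5, 28.8 and 28.7 in jazD. The 3 jazD libraries lay close together and far above the other 6, which overlapped. Its log2 fold change in jazD was 4.43 ± 0.16 against Col-0 (edgeR adjusted p = 3.14e-10), a 21.5-fold rise. UGT74F1, which forms salicylate glucoside, stood at 0.748, 0.672 and 0.422 CPM in Col-0, at 0.798, 1.36 and 1.2 in jazQ and at 2.97, 2.51 and 2.71 in jazD. The jazQ libraries all lay above those of Col-0 and below those of jazD. The jazD rise was 2.15 ± 0.27 (edgeR adjusted p = 5.3e-05), and the jazQ difference of 0.89 ± 0.30 did not pass (edgeR adjusted p = 0.228). UGT74F2, which forms the glucose ester of salicylate and whose function text does not match the rule, rose by 1.05 ± 0.11 in jazD. UGT76B1, which glucosylates the immune regulators isoleucic acid and N-hydroxypipecolic acid as well as salicylate, stood at 2.47, 3.18 and 1.64 CPM in Col-0 and at 2.70, 1.75 and 2.37 in jazD and did not pass. Of the salicylate list, 3 of 4 tested genes rose and none fell, beside 13.3% and 12.5% of all genes tested. The count includes UGT74F2, which is not a member. This list and those below were chosen with earlier results of these data known, so their shares are not a test. UGT76D1, the other gene of the list, was not tested and lay lower in jazD. It stood at 0.518, 0.55 and 0.369 CPM in Col-0 and at 0.324, 0.234 and 0.113 in jazD, without overlap. Over 3 libraries each, this was 25 counts in Col-0 and 12 in jazD.

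Both tested members of the abscisate list rose in jazD, beside 13.3% of all genes tested. UGT71B6, an abscisate glucosyltransferase, stood at 3.68, 2.93 and 3.33 CPM in Col-0, at 1.86, 2.30 and 2.41 in jazQ and at 11.2, 7.89 and 7.85 in jazD. The jazD libraries were the highest and the jazQ libraries the lowest, with no overlap among the 3 genotypes. The jazD rise was 1.44 ± 0.17 against Col-0 (edgeR adjusted p = 3.6e-05), while jazQ did not pass against Col-0 (edgeR adjusted p = 0.237). UGT71C5, which forms abscisate glucose ester in leaves, stood at 22.3, 20.6 and 25 CPM in Col-0, at 23.7, 18.8 and 22.9 in jazQ and at 43.2, 38.3 and 41.1 in jazD, a rise of 0.85 ± 0.10 (edgeR adjusted p = 2.78e-05). Here Col-0 and jazQ overlapped and jazD lay apart.

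UGT76E1, which glucosylates hydroxylated jasmonate, a breakdown product of the hormone, was the single tested gene of the jasmonate list. Its levels were 0.806, 0.734 and 0.422 CPM in Col-0, 1.13, 1.71 and 0.963 in jazQ and 2.11, 2.87 and 2.94 in jazD. Each jazQ library lay above each Col-0 library and below each jazD library. The jazD rise was 2.01 ± 0.30 against Col-0 (edgeR adjusted p = 0.000256) and 1.06 ± 0.27 against jazQ (edgeR adjusted p = 0.00938), and the jazQ difference from Col-0 of 0.95 ± 0.33 did not pass (edgeR adjusted p = 0.241).

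Of the tested members that act on auxin and cytokinin, UGT74D1 and UGT76C2 fell and the others did not pass. UGT74D1, an auxin glucosyltransferase, stood at 32.9, 32.3 and 29.8 CPM in Col-0, at 36.2, 32.8 and 27.9 in jazQ and at 18.5, 23.3 and 18.6 in jazD. All jazD libraries lay below the other 6, and the log2 fold change was -0.65 ± 0.11 (edgeR adjusted p = 0.000766). IAGLU, an auxin glucosyltransferase that the rule does not take in, did not pass at -0.09 ± 0.22. UGT74E2, which acts on the auxin indole-3-butyric acid and is not a member either, was below the count filter and not tested. Over 3 libraries each, jazD had 31 counts, jazQ 12 and Col-0 5. Its levels were 0.115, 0.0611 and 0.106 CPM in Col-0 against 0.486, 0.819 and 0.452 in jazD, and the genotypes did not overlap. UGT76C2, which attaches glucose to a ring nitrogen of cytokinins, stood at 11.8, 11 and 13.4 CPM in Col-0, at 12.6, 13.9 and 14.7 in jazQ and at 10.4, 8.13 and 9.60 in jazD. Its fall of 0.36 on the log2 scale (SE 0.12, edgeR adjusted p = 0.0346) passed in 13 of 18 other fits, whose adjusted p ran from 0.016 to 0.138. It did not pass in the DESeq2 Wald test, without Col-0 replicate 1 or 3, nor without jazD replicate 2 or 3. Its neighbour UGT76C1, with the same activity, did not pass at 0.03 ± 0.12. UGT85A1, which acts on the side chain of zeatin, ranged from 27.4 to 56.9 CPM within jazQ alone and did not pass. The brassinosteroid-conjugating UGT73C6, and UGT73C5, which the rule does not take in, did not pass against Col-0. Against jazQ, UGT73C5 was higher in jazD (0.57 ± 0.12, edgeR adjusted p = 0.0038) and UGT73C6 did not pass.

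Among genes that act on phenylpropanoids, the precursors of lignin, sinapate esters and related phenolics, UGT72E1 gave the steepest change at a high level. UGT72E1, a glucosyltransferase of coniferyl and sinapyl aldehyde, stood at 24.9, 24.1 and 26.0 CPM in Col-0, at 19.3, 17.1 and 21.1 in jazQ and at 107, 122 and 126 in jazD. The jazD libraries were the highest and the jazQ libraries the lowest, again without overlap. The jazD rise was 2.24 ± 0.09 against Col-0 (edgeR adjusted p = 7.13e-10). UGT72E2, which forms coniferin from coniferyl alcohol, stood at 0.863, 1.16 and 0.897 CPM in Col-0, at 0.333, 0.531 and 0.530 in jazQ and at 0.756, 1.46 and 1.58 in jazD. It rose against jazQ (1.40 ± 0.35, edgeR adjusted p = 0.00938) and did not pass against Col-0. UGT72B1, a glucosyltransferase of monolignols and chlorinated phenols, stood at 60.2, 64.5 and 53.5 CPM in Col-0, at 66.1, 62.6 and 59.5 in jazQ and at 46.0, 45.9 and 54.2 in jazD. The highest jazD library lay above the lowest Col-0 library. Its fall of 0.29 on the log2 scale (SE 0.09, edgeR adjusted p = 0.0264) passed in 14 of 18 other fits (adjusted p from 0.0103 to 0.113), and did not pass without Col-0 replicate 1 or 2, nor without jazD replicate 1 or 2. UGT84A2, which makes sinapoylglucose, stood at 34.1, 40.0 and 40.6 CPM in Col-0 and at 38.6, 56.1 and 51.9 in jazD, and neither it nor the other 3 UGT84A genes passed. Of 7 tested genes of the phenylpropanoid list, 1 rose and 1 fell, beside 13.3% and 12.5% of all genes tested.

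Of the flavonoid list, AT1G06000, which RefSeq annotates as a flavonol rhamnosyltransferase, rose and UGT78D3, a flavonol arabinosyltransferase, did not pass. AT1G06000 stood at 35.2, 35.5 and 37.0 CPM in Col-0, at 34.5, 49.3 and 50.1 in jazQ and at 49.6, 64.3 and 55.5 in jazD. In jazQ, replicate 1 lay just below Col-0 and the other two libraries lay close to the lowest jazD library. The rise in jazD was 0.65 ± 0.14 (edgeR adjusted p = 0.00729).

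**Figure D2:**
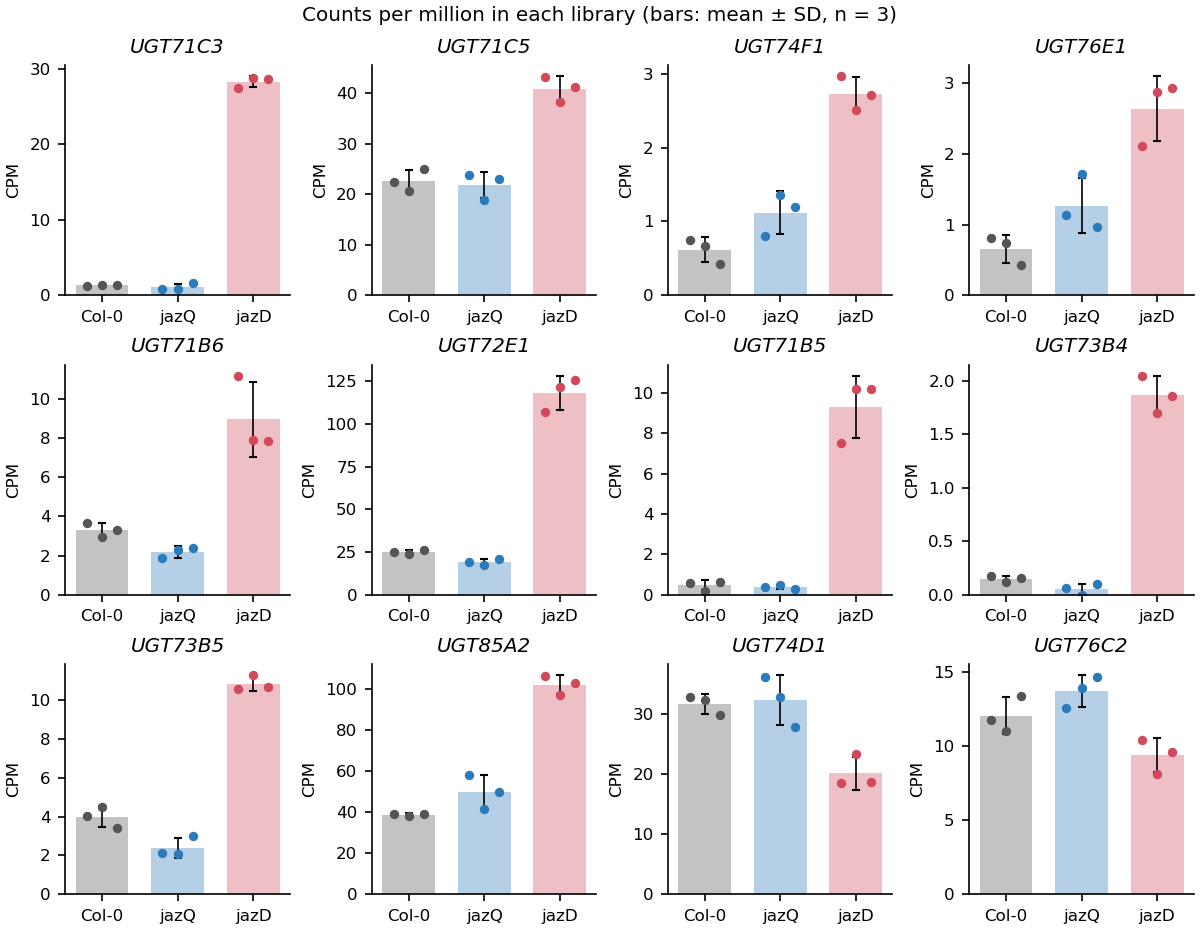
CPM (vertical axes, starting at 0) of 12 members in each library, with points for libraries and bars for the mean ± SD of 3 libraries per genotype. In jazD, 10 members are higher than in Col-0 and UGT74D1 and UGT76C2 are lower. UGT74F1 and UGT76E1 have jazQ libraries between the other genotypes, whereas UGT72E1, UGT73B5 and UGT71B6 have jazQ libraries below Col-0.

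The list of genes linked to pathogens and redox stress had 2 of 5 tested genes rising, beside 13.3% of all genes tested. They were the pair UGT73B5 and UGT73B4 on chromosome 2, of which UGT73B4 reached the count filter only through the jazD libraries. UGT73B5 stood at 4.03, 4.52 and 3.43 CPM in Col-0, at 2.13, 2.07 and 2.99 in jazQ and at 10.6, 11.3 and 10.7 in jazD, a jazD rise of 1.45 ± 0.14 (edgeR adjusted p = 6.12e-06). The jazQ libraries were again the lowest and none of the 3 genotypes overlapped. UGT73B4, which in Arabidopsis also conjugates the explosive TNT, stood at 0.173, 0.122 and 0.158 CPM in Col-0, at 0.0665, 0 and 0.0963 in jazQ and at 2.05, 1.70 and 1.86 in jazD. Over 3 libraries this was 100 counts in jazD against 8 in Col-0 and 3 in jazQ, and the jazD rise against Col-0 was 3.57 ± 0.37 (edgeR adjusted p = 1.27e-05). Against jazQ the ratio of scaled counts was 33.0, with an exact Poisson 95% interval of 11.3 to 160 that covers the counting error of the low count only. The exons of the pair share 255 bases on the same strand in the TAIR10.1 annotation, so reads there can belong to either gene. UGT73B3, which lies on chromosome 4, stood at 1.73, 2.14 and 1.79 CPM in Col-0 and 2.38, 3.33 and 2.60 in jazD, and did not pass against Col-0 (edgeR adjusted p = 0.0577). It rose against jazQ, and that call was lost without jazQ replicate 2 or jazD replicate 2.

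Several strong changes fell on members for which no role is given here. UGT71B5 stood at 0.576, 0.183 and 0.633 CPM in Col-0, at 0.399, 0.472 and 0.289 in jazQ and at 7.51, 10.2 and 10.2 in jazD, a rise of 4.27 ± 0.27 (edgeR adjusted p = 9.88e-08). UGT71C2 stood at 0.230, 0.183 and 0.158 CPM in Col-0, at 0.133, 0 and 0.0963 in jazQ and at 1.13, 1.17 and 0.960 in jazD, a rise of 2.47 ± 0.42 (edgeR adjusted p = 0.000712). Both UGT71B5 and UGT71C2 reached the count filter only with the help of the jazD libraries. UGT85A4 stood at 8.52, 9.90 and 15.9 CPM in Col-0, at 11.5, 7.08 and 10.2 in jazQ and at 43.5, 34.5 and 35.7 in jazD. In each of these 3 genes all jazD libraries lay above the other 6, and Col-0 and jazQ overlapped for UGT71B5 and UGT85A4. UGT85A2 stood at 39.0, 38.1 and 39.1 CPM in Col-0, at 57.8, 41.6 and 49.7 in jazQ and at 106, 97.1 and 103 in jazD, a rise of 1.40 ± 0.10. AT1G05675 stood at 4.43, 6.11 and 3.01 CPM in Col-0 and at 16.7, 17.3 and 11 in jazD, a rise of 1.74 ± 0.31. AT2G29710 stood at 0.921, 0.734 and 0.950 CPM in Col-0, at 1.06, 1.71 and 1.69 in jazQ and at 3.24, 3.45 and 3.22 in jazD, a rise of 1.91 ± 0.22. For AT2G29710 and UGT85A2 every jazQ library lay between the Col-0 and jazD libraries.

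The largest falls were in a pair of neighbours on chromosome 3. AT3G55700 stood at 0.921, 1.41 and 1.43 CPM in Col-0, at 0.466, 0.826 and 0.819 in jazQ and at 0.324, 0.526 and 0.113 in jazD, a change of -1.95 ± 0.42 (edgeR adjusted p = 0.00415). AT3G55710 stood at 4.60, 5.50 and 5.49 CPM in Col-0, at 5.12, 4.43 and 3.71 in jazQ and at 2.11, 2.22 and 1.81 in jazD, a change of -1.34 ± 0.17 (edgeR adjusted p = 6.58e-05). Every jazD library lay below every Col-0 library for both. AT5G05890, a neighbour of UGT76C2 on chromosome 5, fell by 1.18 on the log2 scale and AT2G18570 by 0.45. The call of AT5G05890 was lost without Col-0 replicate 1 or 2 and without jazD replicate 1 or 3, and that of AT2G18570 without jazD replicate 3.

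In jazQ against Col-0, none of the 91 tested members passed in the edgeR test in either direction, where 0.861% of all genes tested rose and 0.412% fell. Unadjusted p was under 0.05 for 21 members, and the share of all genes tested at that threshold was not computed. The DESeq2 Wald test called 1 member lower and none higher, and limma-voom and limma on log2 TPM called none. An edgeR fit with the replicate numbers as a block called 6 members. The median log2 fold change was -0.01 over tested members and over all genes tested. The members closest to the threshold lay on both sides of Col-0. UGT72E1 was at -0.38 ± 0.09 (edgeR adjusted p = 0.0648), UGT73B5 at -0.71 ± 0.17 (edgeR adjusted p = 0.067) and AT2G36780 at -1.04 ± 0.26 (edgeR adjusted p = 0.0922). For UGT72E1 the call passed in 4 of 18 other fits, with adjusted p from 0.0142 to 0.23, and for UGT73B5 in 4 of 18, from 0.0276 to 0.258. For AT2G36780 it passed in 0 of 17 (0.0688 to 0.299). The next were UGT85A7 at 0.99 ± 0.25 (edgeR adjusted p = 0.0961) and UGT85A2 at 0.36 ± 0.10 (edgeR adjusted p = 0.117), both above Col-0.

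In jazD against jazQ, 27 members rose and 9 fell, where 15.0% of all genes tested rose and 13.8% fell. A rise of at least 2-fold was seen in 20 members and a fall of at least 2-fold in 3, against 4.17% and 1.52% of all genes tested. Both counts of rises include UGT73B4, UGT71C2, AT2G36770 and UGT71B5, which reached the count filter only with the help of the jazD libraries. The counts were not repeated without them. The comparisons share libraries, so their calls are not independent. Of the 30 members higher in jazD than in Col-0, 24 were also called higher than in jazQ. The other 6 were AT1G06000, UGT85A7, AT3G46650, AT3G46700, AT4G27560 and AT5G24750. UGT85A7 stood at 1.04, 1.34 and 1.11 CPM in Col-0, at 2.2, 1.59 and 3.03 in jazQ and at 2.00, 1.99 and 2.14 in jazD, so the mutants overlapped above Col-0. Its rise in jazD against Col-0 (edgeR adjusted p = 0.0335) passed in 11 of 17 other fits (0.016 to 0.106), and was lost in the DESeq2 Wald test and without Col-0 replicate 1 or 3 or any of the jazD replicates. AT5G24750 passed against Col-0 in 13 of 18 other fits (0.00859 to 0.0922), and was lost in limma on log2 TPM and when jazD replicate 1 or Col-0 replicate 1 or 2 was left out. Of the 7 members lower in jazD than in Col-0, AT3G55700 alone did not pass against jazQ. AT1G73740, UGT73B3 and UGT72E2 were higher, and UGT85A3, AT2G18560 and AT2G30150 lower, in jazD than in jazQ without passing against Col-0. The call of AT2G18560 held in 12 of 18 other fits (adjusted p from 0.0161 to 0.115) and that of AT2G30150 in 15 of 18 (0.0136 to 0.113). UGT85A3 stood at 0.806, 0.489 and 0.475 CPM in Col-0, at 1.46, 0.826 and 0.867 in jazQ and at 0.378, 0.234 and 0.226 in jazD.

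The calls are counted here by numbered family, only over members whose name carries the number. Members with only an identifier or another name were counted apart, and some of them may belong to these families. Over all genes tested in jazD against Col-0, 13.3% rose and 12.5% fell. Among members named UGT71, 6 of 9 tested rose in jazD against Col-0 and none fell. Of those named UGT85 3 of 6 rose and none fell, and of those named UGT73 2 of 7 rose and none fell. In UGT72 2 of 4 tested members rose and 1 fell, and in UGT76 1 of 6 rose and 1 fell. None of 4 tested UGT84 members passed in the same edgeR fit. Without the members that reached the count filter only through the jazD libraries, 4 of 7 UGT71 members and 1 of 6 UGT73 members rose. Among the 41 tested members with only an identifier, 15 rose and 4 fell. These named groups hold few genes, and the differences between them were not tested. Members that act on lipids, polymers or sugar phosphates did not pass. These were DGD1, GBSS1, TPS6 of trehalose phosphate synthesis, LEW3 of N-glycan assembly, SETH2 of GPI-anchor synthesis and the sterol glucosyltransferases UGT80A2 and UGT80B1, whose log2 fold changes lay between -0.14 (DGD1) and 0.14 (LEW3).

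Close neighbours often differed in size of change. With at most 3 genes between neighbours, 66 members formed 22 clusters. Of the 18 clusters with at least 2 tested members, 13 held a member that rose or fell. None of these 13 held both a riser and a faller. Only 7 of the 91 tested members fell, and the number of mixed clusters to expect was not computed, so no shared direction is read from this. All tested members rose in 2 of the 13 clusters, the UGT73B5 and UGT73B4 pair and the pair AT4G15260 and UGT71B5 on chromosome 4. In each pair 1 gene, UGT73B4 or UGT71B5, reached the count filter only through the jazD libraries in which it was high. On chromosome 1, UGT71C5, UGT71C4 and UGT71C3 lie side by side, with log2 fold changes of 0.85 ± 0.10, 0.05 ± 0.07 and 4.43 ± 0.16. UGT71C4 stood at 44.6, 50.6 and 47.2 CPM in Col-0 and 47.8, 53.2 and 46.3 in jazD, so the middle gene overlapped between genotypes while both its neighbours separated. Exons of UGT71C4 and UGT71C3 share 15 bases, on opposite strands. On chromosome 2, AT2G29710 and UGT71C2 rose, whereas UGT71D1 (0.24 ± 0.13) and UGT71C1 (0.06 ± 0.56) did not pass. Of these, UGT71C2 reached the count filter only through the jazD libraries. In the chromosome 1 cluster of UGT85 genes, UGT85A2 rose, as did UGT85A7, which passed in 11 of 17 other fits, and UGT85A5, UGT85A3 and UGT85A1 did not pass, at 0.02, -1.05 and -0.21.

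**Figure D3:**
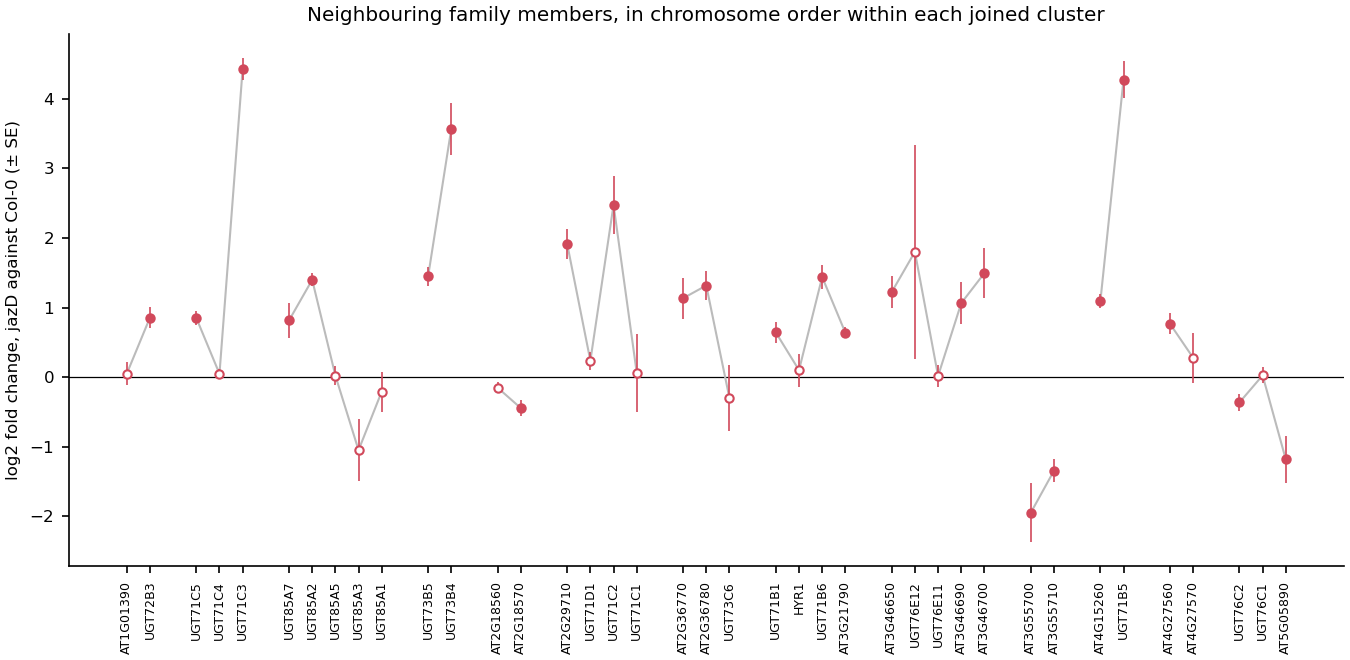
Log2 fold change in jazD against Col-0 (vertical axis, bars are standard errors) for tested members of the 13 clusters with at least 2 tested members and at least 1 call. Members joined by a line are neighbours in chromosome order, and filled circles mark an adjusted p under 0.05. Within the cluster of UGT71C5, UGT71C4 and UGT71C3 the values run from 0.05 to 4.43. No cluster has filled circles on both sides of 0, though only 7 of the 91 tested members fell.

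On the length-normalised TPM scale, which allows levels of different genes to be compared, the family summed to 1181.1 ± 31.9 (SD, n = 3) in jazD, against 960 ± 25.7 in Col-0 and 961 ± 37.7 in jazQ. The jazD sums of 1146.0, 1189.1 and 1208.2 all lay above those of the other genotypes, whose highest was 1000.3 in jazQ replicate 2. The mean jazD sum was 23.0% above that of Col-0, a difference of 221 TPM, and the 5 largest rises, in UGT72E1, UGT85A2, AT4G27560, UGT71C3 and UGT85A4, amounted to 169 TPM. UGT88A1 was the most abundant member in Col-0, with a mean of 106 TPM, against 100.0 in jazQ and 93.9 in jazD, and its counts did not pass between jazD and Col-0 in the edgeR test (-0.10 ± 0.06, adjusted p = 0.252), while limma on log2 TPM called it lower in jazD. UGT72E1 moved from 18.9 TPM in Col-0 to 85.0 in jazD, where it ranked second in the family and was above UGT88A1 in replicate 3. UGT85A2 had the next highest level in jazD, with 73.4 TPM against 29.3 in Col-0. UGT71C3, with the largest fold change, reached 20.3 TPM.

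**Figure D4:**
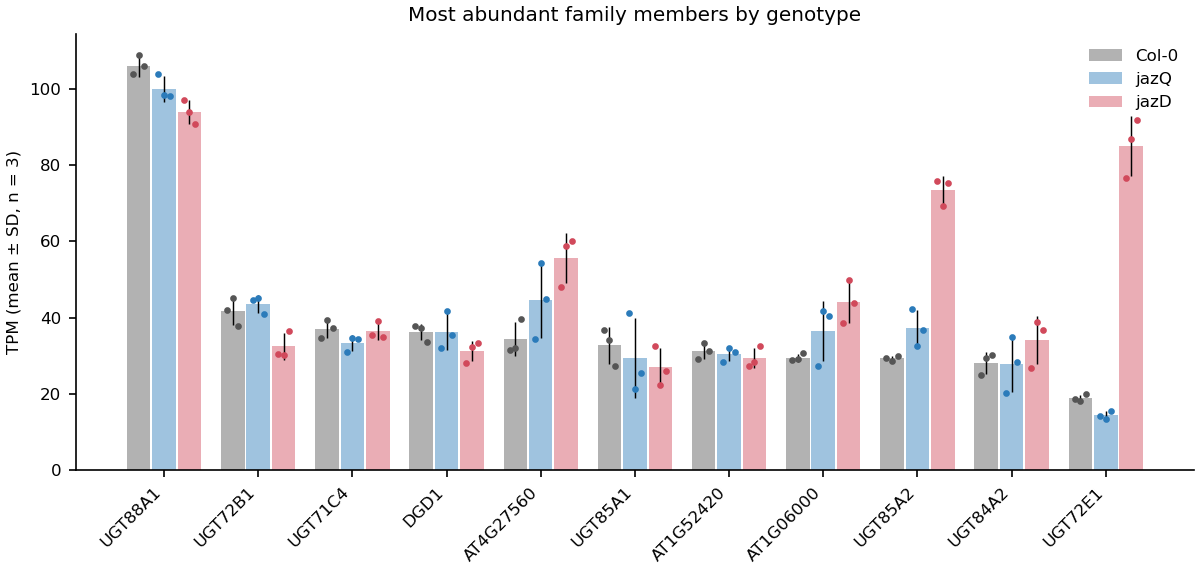
TPM (vertical axis, starting at 0) of the 11 members that were among the 8 most abundant in any genotype, as mean ± SD of 3 libraries, with a point for each library. UGT88A1 leads in all 3 genotypes by its mean, and UGT72E1 and UGT85A2 differ most between wild type and jazD (66.1 and 44.1 TPM).

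Genes that make or interconvert UDP-sugars, the donors of these enzymes, were also counted. Tested were 20 genes of sucrose synthases, UDP-glucose pyrophosphorylases, UDP-glucose epimerases and dehydrogenases and rhamnose synthases. In jazD against Col-0, 8 fell, 1 rose and 11 did not pass, where 12.5% of all genes tested fell and 13.3% rose. Among those that fell, UGD1 passed narrowly at -0.30 ± 0.10 (edgeR adjusted p = 0.0497). Other fits called 6 to 8 genes of the list lower. The median log2 fold change of the list was -0.14, and in jazQ against Col-0 none of its genes passed in the edgeR test. SUS4, a sucrose synthase, stood at 3.57, 3.73 and 3.64 CPM in Col-0, at 2.46, 3.07 and 2.94 in jazQ and at 1.67, 1.05 and 1.3 in jazD, with no overlap among genotypes and a jazD change of -1.43 ± 0.19 (edgeR adjusted p = 0.000119). UGP1, which forms UDP-glucose, stood at 119, 115 and 115 CPM in Col-0 and 93.5, 91.8 and 100 in jazD, a change of -0.29 ± 0.06 (edgeR adjusted p = 0.0019). UGD2, a UDP-glucose dehydrogenase, changed by -0.35 ± 0.06 (edgeR adjusted p = 0.00128). Apart from SUS4, the falls were small, between -0.24 (RHM2) and -0.53 (UGE1). The gene that rose was RHM1, a rhamnose synthase, named after its values were seen. It stood at 115, 66.0 and 88.8 CPM in Col-0, at 161, 169 and 167 in jazQ and at 132, 137 and 135 in jazD, and its call held in 8 of 18 other fits. In jazQ, RHM1 did not pass (edgeR adjusted p = 0.0515) and passed in 7 of 18 other fits.

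Promoter windows of 300 bases (250 before and 50 after the annotated start, TAIR10.1) were searched on both strands for letters bound by factors of jasmonate and stress responses. The G-box CACGTG was present in 4 of the 30 members that rose (13.3%), in none of the 7 that fell and in 8.94% of all members, against 7.68% of 27443 promoters. The GCC box GCCGCC was present in UGT85A4 and AT4G15260, both of which rose, and in no other member, against 2.57% of promoters. The as-1 core TGACG was present in 30.0% of risers and in 2 of 7 fallers, against 23.1% of promoters. UGT73B4 and UGT76E1 held a G-box, while UGT71C3, UGT71B5 and UGT72E1 held none of the 3.

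Some values are uncertain because genes share sequence. In the TAIR10.1 exons, 19.5% of the 50-base words of AT4G27560 also occur in another gene, its neighbour AT4G27570, which did not pass. AT2G36770 shares 10.1% of its words with other genes and AT2G36780 8.7%, in each case most with the other of the pair. UGT73C6 shares 7.9% of its words with UGT73C5, and the jazD libraries of UGT73C6 stood at 3.57, 0.702 and 3.39 CPM. UGT76E12 was listed at 0 in several libraries and had a log2 fold change of 1.80 ± 1.53, which did not pass. Annotated transcripts on the opposite strand cover nearly the whole of UGT74D1, UGT71B6, UGT85A4 and AT1G06000 and most of UGT76E1. Such a transcript also covers 49% of the exon bases of AT3G46650 and 22.7% of those of UGT74F1. Because the strandedness of the libraries is not given, reads of such pairs cannot be told apart.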

How the data were processed

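Per the labels' protocols, each library was a pool of about 20 rosettes, and the samples of a genotype are separate biological replicates. Per the file headers, the authors deposited expected counts and TPM values, in separate tables. RSEM 1.2.25 and TAIR10 are named in the submitters' processing notes. The sources used here do not give the aligner, the annotation version or the strandedness. Expected counts divide shared reads among genes, and 69.1 to 72.6% of those above 0 were whole.

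Counts were rounded, filtered with filterByExpr (minimum count 10), scaled with TMM and fitted with edgeR 4.0.16 (R 4.3.3, robust quasi-likelihood F test, no covariates) over all 9 libraries. CPM values use the TMM-scaled library sizes. P-values were adjusted by Benjamini-Hochberg over 19405 genes and the threshold was 0.05. The scripts were tested on simulated data. Replicates differed by more than sampling noise in every genotype. Counting error weighs most on members with low counts, and no CPM limit for this was computed. Alternatives used DESeq2 1.42.0, limma 3.58.1, other filters, a replicate block and leaving out each library. TPM was used for levels between genes.

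The members and gene lists were chosen with earlier results of these data known. Named genes were up to 10 members per comparison with the largest changes among those that passed with separate libraries and a higher group of 1 CPM or more, up to 3 genes per list by smallest p, and the 5 members with the highest TPM in Col-0. The other members named complete a neighbour cluster, a pattern over genotypes or a family and were chosen after their values were seen. The RefSeq annotation of TAIR10.1 gave names, neighbours, shared words and promoter motifs. No coordinates or sequences are printed because that assembly's name differs from the authors'.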

Additional observations from a re-analysis of the deposited data

How the results depend on the processing

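Among the genes chosen by the naming rule, 1917 log2 fold changes under other settings kept direction and side of the threshold, 25 newly passed, 11 no longer passed and 0 reversed. Over all called members, 27 of 37 in jazD against Col-0 and 31 of 36 in jazD against jazQ passed in every other fit that tested them. The 10 with a lost call against Col-0 were AT5G12890, UGT85A7, AT3G46690, AT5G24750, UGT76C2, AT5G05890, UGT72B1, AT2G36970, AT2G36770 and AT2G18570, and the 5 against jazQ were AT2G18560, AT2G18570, AT2G30150, UGT71B1 and UGT73B3. Outside the members, RHM1 passed in 8 of 18 other fits. Members higher in jazD than in Col-0 numbered 26 to 30 and members lower 4 to 7 when each library was left out in turn, with 4 lower without Col-0 replicate 1 or jazD replicate 3. With a mean CPM of at least 5, 55 members were tested, 17 were higher and 4 lower in jazD than in Col-0, and 15 were higher in jazD than in jazQ. That filter removed from testing all 16 members whose calls it lost against Col-0. In jazQ against Col-0, leaving out a library gave 0 to 2 members higher (1 without jazQ replicate 1, AT1G06000, and 2 without jazQ replicate 2, UGT85A7 and UGT85A2) and 0 to 2 lower (2 without Col-0 replicate 3 and 2 without jazQ replicate 3). Without a filter on low counts 2 members were lower, UGT72E1 and UGT73B5, and the DESeq2 Wald test called 1 lower, UGT72E1. The cause of these differences was not tested.

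Replicate numbers are shared by the genotypes. Deviations from the group means correlated by 0.015 to 0.306 between same-numbered libraries and by -0.245 to 0.088 between differently numbered ones. Whether the numbers pair the libraries was not tested. The main fit leaves them out, and its counts of calls depend on that choice. With the replicate block, 4 members were higher and 2 lower in jazQ than in Col-0, 33 higher and 8 lower in jazD than in Col-0, and 36 higher and 9 lower in jazD than in jazQ. UGT84A2 passed with the block alone, at 0.34 against Col-0 (adjusted p = 0.00256) and 0.37 against jazQ (adjusted p = 0.00134). The members named with values below 1 CPM rest on few counts. Differences well above their standard errors also did not pass there, such as UGT76E1 in jazQ against Col-0 at 0.95 ± 0.33 (edgeR adjusted p = 0.241). The smallest difference detectable at this depth was not computed.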
